A study of Mus musculus with 22 samples.

Results

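The genes examined here encode integrins, laminins and the adhesive glycoproteins that lie with them in the matrix around cells. They were chosen by name: laminin chains (Lama, Lamb and Lamc genes), integrin alpha and beta chains (Itga and Itgb genes), and Fn1, Nid1, Nid2, Hspg2, Vtn, Tnc and Sparc. In all, 41 of the 18193 genes with a probe set of a single symbol fitted, as 10 laminin, 16 integrin alpha and 8 integrin beta chains, 3 genes whose products link basement membrane networks (Nid1, Nid2 and Hspg2) and 4 adhesive glycoproteins (Fn1, Sparc, Tnc and Vtn). Itga11, Itgad and Spp1 were not analysed here. The names, and no threshold on a measured value, set which genes were included, although earlier results of these data were known when the set was chosen. Where a gene had several probe sets, the one with the highest mean over all 22 arrays stood for it.

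The cells were Rex1GFPd2 mouse embryonic stem (ES) cells, a reporter line for the pluripotency gene Rex1, grown in Neurobasal and DMEM/F12 with N2 and B27. All arms received PD0325901 (PD), which blocks the kinase MEK, and a reverse transfection of siRNA. YAP/TAZ siRNA cells (8 arrays, 4 for each of 2 siRNA mixes) and PD-only control cells (7 arrays, 4 with control siRNA 1 and 3 with control siRNA 2) were moved to medium with PD alone 24 hours after transfection. The 2i control cells (7 arrays, again 4 and 3) carried the same control siRNAs and stayed in 2i, which combines PD with the GSK3 blocker CHIR99021 (CHIR). RNA was collected 72 hours after transfection. YAP and TAZ, encoded by Yap1 and Wwtr1, are coactivators of the Hippo pathway that act on DNA through TEAD factors, and the series title places them in the beta-catenin destruction complex. The comparisons ask how the genes differ when YAP and TAZ are depleted, and when CHIR is present, relative to PD-only control. Both comparisons use the same PD-only control arrays. The labels call the arrays biological replicates without saying what separates them, so p-values measure the spread between these samples. A change of medium is stated for the PD-only arms only and cannot be told apart from the loss of CHIR.

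Laminins are cross-shaped trimers of 1 alpha, 1 beta and 1 gamma chain that polymerise into the base layer of basement membranes. Nidogens and perlecan tie this layer to collagen IV. Integrins are alpha-beta pairs in the cell membrane that bind laminin, fibronectin or vitronectin outside the cell and connect them through adaptor proteins to actin. In the early mouse embryo, laminin with the alpha 1, beta 1 and gamma 1 chains is the first basement membrane component, and ES cells bind it mainly through the integrin of alpha 6 and beta 1.

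Values are log2 expression made with RMA, differences are on the log2 scale with the model's standard error, and a gene was called where limma's fit over all genes gave an adjusted p (Benjamini-Hochberg) below 0.05. Yap1 had 9.77 ± 0.08 in YAP/TAZ siRNA cells (mean ± SD, n = 8), 10.89 ± 0.04 in 2i control cells (n = 7) and 11.04 ± 0.03 in PD-only control cells (n = 7). With YAP/TAZ siRNA, Yap1 fell by 1.27 ± 0.03 and Wwtr1 by 1.04 ± 0.03 relative to PD-only control (adjusted p = 2.61e-18 and 5.32e-17). Array medians lay between 5.51 and 5.55, and arrays of an arm correlated at 0.9977 or above. The signal of the 3′ minus that of the 5′ Actb control probe set, a measure of RNA integrity and labelling, was 0.975 ± 0.0616 in YAP/TAZ siRNA cells (SD, n = 8), 0.966 ± 0.104 in 2i control cells (n = 7) and 0.717 ± 0.0355 in PD-only control cells (n = 7). It was higher than in PD-only control by 0.258 with YAP/TAZ siRNA and by 0.249 in 2i control (two-sided exact permutation tests, p = 0.000155 and 0.000583, adjusted over 9 tests 0.000697 and 0.00131), so it moves with both comparisons. In the same tests, the Gapdh signal of this kind differed by 0.058 with YAP/TAZ siRNA and 0.0629 in 2i control (adjusted p = 0.00279 and 0.00131). Array medians differed by -0.0296 with YAP/TAZ siRNA and -0.0229 in 2i control (adjusted p = 0.000697 and 0.00279).

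With YAP/TAZ siRNA, 30 of the 41 genes differed from PD-only control, 13 of them higher and 17 lower, where 61.8% of all genes were called (35.5% higher and 26.3% lower). In 2i control cells, 28 differed from PD-only control, 10 higher and 18 lower, against 58% of all genes (31.3% higher and 26.7% lower). A called difference of 2-fold or more was seen in 5 genes in each comparison, each of them lower. Over all genes, 6.37% differed so much with YAP/TAZ siRNA (1.9% higher and 4.47% lower) and 5.81% in 2i control (1.69% higher and 4.12% lower). The arrays did not overlap those of PD-only control for 9 genes that were higher and 14 that were lower with YAP/TAZ siRNA, against 40.4% of all genes (21.1% higher and 19.3% lower), and for 7 higher and 14 lower in 2i control, against 37.6% (18.7% higher and 19% lower). The median of the 41 genes was -0.05 with YAP/TAZ siRNA and -0.04 in 2i control, beside medians over all genes of 0.06 with YAP/TAZ siRNA and 0.04 in 2i control. Large falls of Sparc, Lamb1 and Itgb1 stood beside smaller rises of Fn1, Nid1, Nid2 and Lama1. Of the 41 genes, 22 had a mean under 6.64, the median of all genes, in each arm and are called dim, and folds of dim genes on arrays are compressed by background. In RNA from whole cultures, fewer cells of a type and less RNA per cell cannot be told apart. The mean of 12 fibroblast markers moved with both comparisons, at 4.60 to 4.74 in YAP/TAZ siRNA cells, 4.48 to 4.66 in 2i control cells and 6.13 to 6.21 in PD-only control cells.

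**Figure D1:**
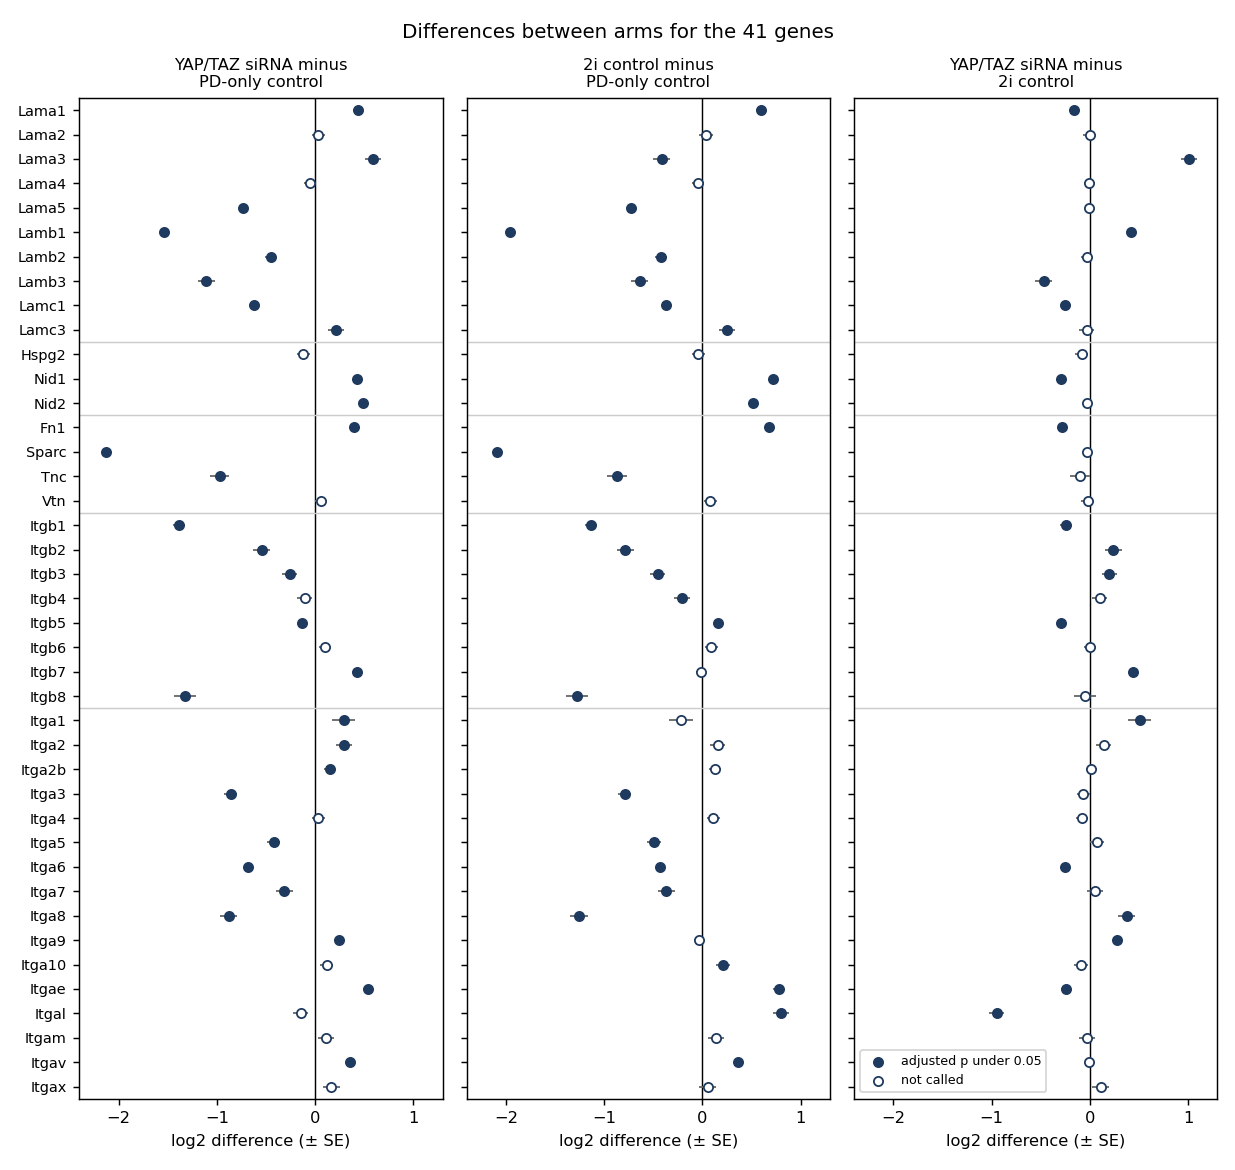
Log2 difference (± SE) of each of the 41 genes for YAP/TAZ siRNA minus PD-only control (left), 2i control minus PD-only control (middle) and YAP/TAZ siRNA minus 2i control (right), with laminins, linkers, adhesive glycoproteins, integrin beta and integrin alpha chains separated by grey lines. Filled points passed the adjusted p of 0.05, and the points farthest left are Sparc at -2.12 and -2.09 and Lamb1 at -1.54 and -1.96.

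The promoters of 5 genes are shown because they are among those that moved most or carry a short TEAD-type motif, the DNA element through which YAP and TAZ act. Each is the 250 bases before a transcript start in RefSeq (GRCm38.p6), 5′ to 3′ on the strand of the gene, and capitals mark GGAATG or its reverse complement CATTCC. The promoters of Itgb1 (chr8:128685404-128685653, plus strand), Lamb3 (chr1:193301993-193302242, plus strand, one of 2 listed) and Nid1 (chr13:13437352-13437601, plus strand) hold the motif. Those of Lamb1 (chr12:31265043-31265292, plus strand) and Sparc (chr11:55420081-55420330, minus strand) do not.
Itgb1: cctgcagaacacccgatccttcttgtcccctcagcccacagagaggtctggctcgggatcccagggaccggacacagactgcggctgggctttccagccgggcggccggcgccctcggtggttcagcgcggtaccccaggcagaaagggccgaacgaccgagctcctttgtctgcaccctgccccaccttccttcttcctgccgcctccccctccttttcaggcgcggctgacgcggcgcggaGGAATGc
Lamb3: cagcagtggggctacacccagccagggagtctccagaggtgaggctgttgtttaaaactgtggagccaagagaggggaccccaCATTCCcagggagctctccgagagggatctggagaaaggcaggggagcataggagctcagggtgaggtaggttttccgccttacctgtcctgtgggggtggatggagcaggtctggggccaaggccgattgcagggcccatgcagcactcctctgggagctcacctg
Nid1: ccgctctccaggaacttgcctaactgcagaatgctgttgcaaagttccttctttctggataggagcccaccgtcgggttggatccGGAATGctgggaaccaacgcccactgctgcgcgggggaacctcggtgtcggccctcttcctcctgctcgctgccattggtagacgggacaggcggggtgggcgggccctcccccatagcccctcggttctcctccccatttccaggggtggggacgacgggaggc
Lamb1: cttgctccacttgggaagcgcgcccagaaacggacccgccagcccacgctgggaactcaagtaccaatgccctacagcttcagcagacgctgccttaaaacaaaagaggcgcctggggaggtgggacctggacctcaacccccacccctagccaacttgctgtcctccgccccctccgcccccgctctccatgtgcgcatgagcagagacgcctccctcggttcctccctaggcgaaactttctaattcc
Sparc: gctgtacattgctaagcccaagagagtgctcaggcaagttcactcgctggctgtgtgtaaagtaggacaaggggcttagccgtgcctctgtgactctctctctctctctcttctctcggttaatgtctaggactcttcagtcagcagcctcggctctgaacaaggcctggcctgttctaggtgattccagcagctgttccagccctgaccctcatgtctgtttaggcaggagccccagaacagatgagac
RefSeq promoters were matched for 27 of the 41 genes, 31 promoters in all. GGAATG or its complement stood in 5 of the 31 (16.1%), those of Itga10, Itgb1, Lamb3, Nid1 and Vtn, against 12.6% of all 32851 promoters. The TCF/LEF-type motif CTTTGA, searched on both strands, stood in 4 of the 31 (12.9%), those of Itga1, Itga10, Itgam and Lama2, against 13.8% of all promoters. The AP-1 motif TGANTCA stood in that of Itgax alone (3.23%), against 6.75% of all promoters. Of the promoters printed, those with the TEAD-type motif belong to a gene that was higher than in PD-only control (Nid1) and to genes that were lower (Itgb1 and Lamb3). Those of Sparc and Lamb1, which were lower too, hold none. Whether the motif goes with a difference was not tested. A match describes letters in this window and not a binding site.

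Among the 10 laminin chains, 3 were higher and 5 lower with YAP/TAZ siRNA than in PD-only control, and 2 were higher and 6 lower in 2i control, beside 61.8% of all genes called with YAP/TAZ siRNA and 58% in 2i control. The beta 1 chain moved most. Lamb1 (chromosome 12, 31265146 to 31329644) had a lowest, median and highest value of 9.77, 9.89 and 9.98 in YAP/TAZ siRNA cells, 9.40, 9.47 and 9.53 in 2i control cells, and 11.37, 11.42 and 11.50 in PD-only control cells. No array of one arm overlapped another, with 2i control lowest. Lamb1 was 2.90-fold lower with YAP/TAZ siRNA (-1.54 ± 0.03, adjusted p = 1.1e-19) and 3.89-fold lower in 2i control (-1.96 ± 0.03, adjusted p = 4.65e-21) than in PD-only control. All 4 of its probe sets were lower in both comparisons.

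Of the alpha chains that were not dim, Lama1 and Lama5 went opposite ways. Lama1, the alpha chain of the embryonic laminin, had 6.94, 6.995 and 7.18 (lowest, median and highest) in YAP/TAZ siRNA cells, 7.05, 7.13 and 7.41 in 2i control cells and 6.52, 6.57 and 6.68 in PD-only control cells. Every array of the first 2 arms lay above every PD-only control array, with differences of 0.43 ± 0.05 for YAP/TAZ siRNA (adjusted p = 6.18e-08) and 0.59 ± 0.05 for 2i control (adjusted p = 1.04e-09). Lama5, the alpha chain of a laminin on which pluripotent cells are often grown, had 8.92, 8.99 and 9.07 in YAP/TAZ siRNA cells, 8.90, 8.98 and 9.08 in 2i control cells and 9.70, 9.72 and 9.78 in PD-only control cells. It was below PD-only control by 0.74 ± 0.03 with YAP/TAZ siRNA and 0.73 ± 0.03 in 2i control (adjusted p = 5.29e-15 and 1.42e-14), and neither arm overlapped PD-only control. Lamc1, the shared gamma chain, had 8.77 to 8.99 in YAP/TAZ siRNA cells, 8.98 to 9.15 in 2i control cells and 9.42 to 9.51 in PD-only control cells, and was lower by 0.62 ± 0.03 with YAP/TAZ siRNA and 0.37 ± 0.04 in 2i control (adjusted p = 1.07e-12 and 8.34e-09). The second, dimmer Lamc1 probe set was lower with YAP/TAZ siRNA (-0.48 ± 0.10) but higher in 2i control (0.73 ± 0.11, adjusted p = 4.88e-06), so the direction of Lamc1 in 2i depends on the probe set. Lamb2, the beta chain of many adult laminins, was lower by 0.45 ± 0.06 with YAP/TAZ siRNA and 0.42 ± 0.06 in 2i control (adjusted p = 7.25e-07 and 3.52e-06).

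Lamb3 and Lama3, laminin chains known from epithelia, were dim. Lamb3 (chromosome 1) had 4.26, 4.72 and 4.97 in YAP/TAZ siRNA cells, 4.87, 5.15 and 5.32 in 2i control cells and 5.52, 5.82 and 6.07 in PD-only control cells, with no overlap with PD-only control. It was 2.15-fold lower with YAP/TAZ siRNA (-1.11 ± 0.09, adjusted p = 3.61e-10) and 1.56-fold lower in 2i control (-0.64 ± 0.09, adjusted p = 2.4e-06). Lama3 had 5.75, 5.98 and 6.12 in YAP/TAZ siRNA cells, 4.69, 4.92 and 5.21 in 2i control cells and 5.14, 5.41 and 5.61 in PD-only control cells. The YAP/TAZ siRNA arrays lay above all others, and the 2i control and PD-only control arrays overlapped. Lama3 rose with YAP/TAZ siRNA (0.59 ± 0.08, adjusted p = 2.34e-06) and was lower in 2i control (-0.42 ± 0.08, adjusted p = 0.000274). Its second, dimmer probe set was called in neither comparison (0.12 ± 0.07 with YAP/TAZ siRNA and 0.05 ± 0.07 in 2i control, adjusted p = 0.166 and 0.559), so the direction of Lama3 rests on 1 probe set. Lamc3 was slightly higher in both (0.22 ± 0.08 with YAP/TAZ siRNA and 0.25 ± 0.08 in 2i control, adjusted p = 0.0259 and 0.0155). Its call with YAP/TAZ siRNA was lost in limma's fits on siRNA 1 or siRNA 2 alone (adjusted p = 0.0562 and 0.19) and with several single arrays left out. Its call in 2i control was lost with siRNA 2 alone (adjusted p = 0.381). Lama2 (0.04 ± 0.07 with YAP/TAZ siRNA and 0.04 ± 0.07 in 2i control) and Lama4 (-0.05 ± 0.06 with YAP/TAZ siRNA and -0.05 ± 0.06 in 2i control) did not pass the test, and both were dim.

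**Figure D2:**
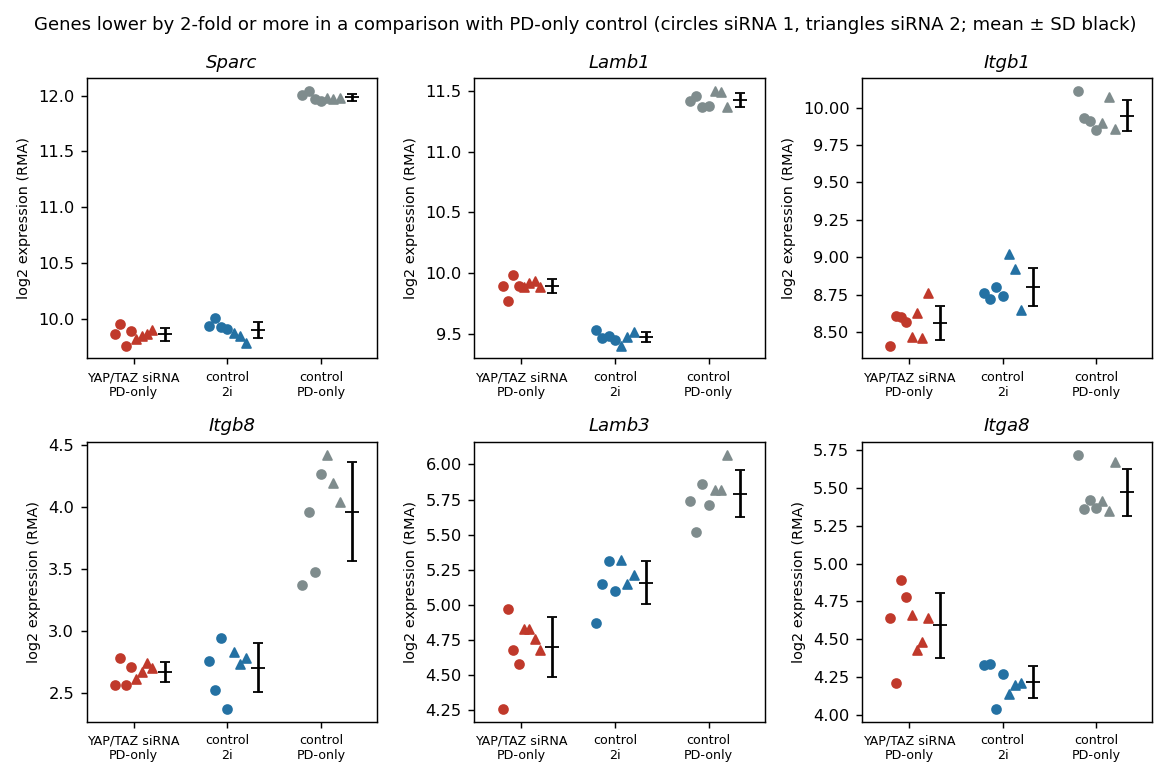
Log2 expression of each array for the 6 genes lower by 2-fold or more in at least 1 comparison with PD-only control, with YAP/TAZ siRNA cells at the left, 2i control cells in the middle and PD-only control cells at the right, and the mean ± SD of each arm in black. In each panel the PD-only control arrays lie above the others, and for Sparc the 2 other arms share the range 9.76 to 10.01.

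Of the linkers, both nidogens, which bridge the laminin layer and collagen IV, were higher. Nid1 had 10.97, 11.04 and 11.09 in YAP/TAZ siRNA cells, 11.25, 11.35 and 11.37 in 2i control cells and 10.47, 10.62 and 10.67 in PD-only control cells. Nid2 had 11.50, 11.54 and 11.57 in YAP/TAZ siRNA cells, 11.54, 11.56 and 11.61 in 2i control cells and 11.01, 11.04 and 11.11 in PD-only control cells. Neither overlapped PD-only control. Nid1 was higher by 0.42 ± 0.03 with YAP/TAZ siRNA and 0.72 ± 0.03 in 2i control (adjusted p = 3.15e-10 and 1.12e-13), and Nid2 by 0.49 ± 0.02 with YAP/TAZ siRNA and 0.52 ± 0.02 in 2i control (adjusted p = 2.5e-14 and 1.99e-14). Hspg2, which encodes perlecan, had 8.04 to 8.36 in YAP/TAZ siRNA cells, 8.17 to 8.41 in 2i control cells and 8.14 to 8.49 in PD-only control cells, and its differences of -0.12 ± 0.07 with YAP/TAZ siRNA and -0.04 ± 0.07 in 2i control did not pass the test (adjusted p = 0.12 and 0.629). Its other probe set, nearly as bright at a mean of 7.90 beside 8.27, was lower by 1.62 ± 0.04 with YAP/TAZ siRNA and 0.998 ± 0.04 in 2i control (adjusted p = 3.56e-18 and 2.77e-14, in a fit over all 34945 probe sets of a single symbol, of which 56.6% and 54.5% were called). The call for Hspg2 thus depends on the probe set.

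Of the 4 adhesive glycoproteins, 1 was higher and 2 were lower in each comparison, beside 61.8% of all genes called with YAP/TAZ siRNA and 58% in 2i control. Sparc (chromosome 11, 55394159 to 55420080) encodes a collagen-binding protein of basement membranes that counters cell spreading, and it changed more than any other of the 41 genes in both comparisons. It had 9.76, 9.86 and 9.95 in YAP/TAZ siRNA cells, 9.78, 9.91 and 10.01 in 2i control cells, and 11.95, 11.98 and 12.04 in PD-only control cells. The gap to PD-only control was far wider than the spread of any arm: Sparc was 4.36-fold lower with YAP/TAZ siRNA (-2.12 ± 0.03, adjusted p = 1.3e-22) and 4.27-fold lower in 2i control (-2.09 ± 0.03, adjusted p = 3.1e-22). A second probe set was lower by 1.91 with YAP/TAZ siRNA and by 1.84 in 2i control, and the remaining one, with a mean of 6.38, was not called. Tnc, which encodes the anti-adhesive tenascin C, was dim, with 4.12, 4.45 and 4.71 in YAP/TAZ siRNA cells, 4.38, 4.55 and 4.77 in 2i control cells and 5.07, 5.34 and 5.74 in PD-only control cells. It was lower by 0.97 ± 0.10 with YAP/TAZ siRNA and 0.87 ± 0.10 in 2i control (adjusted p = 2.51e-08 and 2.31e-07). The second Tnc probe set was at -0.11 with YAP/TAZ siRNA and not called, and at -0.22 in 2i control and called. Fn1, which encodes fibronectin, was the brightest of the 41 probe sets chosen, with 12.38, 12.42 and 12.45 in YAP/TAZ siRNA cells, 12.63, 12.68 and 12.80 in 2i control cells and 12.00, 12.01 and 12.08 in PD-only control cells. The 3 arms did not overlap, and Fn1 was higher than in PD-only control by 0.39 ± 0.02 with YAP/TAZ siRNA and 0.68 ± 0.02 in 2i control (adjusted p = 3.51e-12 and 9.76e-16). Vtn, which encodes vitronectin, was dim and did not pass the test (0.06 ± 0.06 with YAP/TAZ siRNA and 0.08 ± 0.06 in 2i control).

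**Figure D3:**
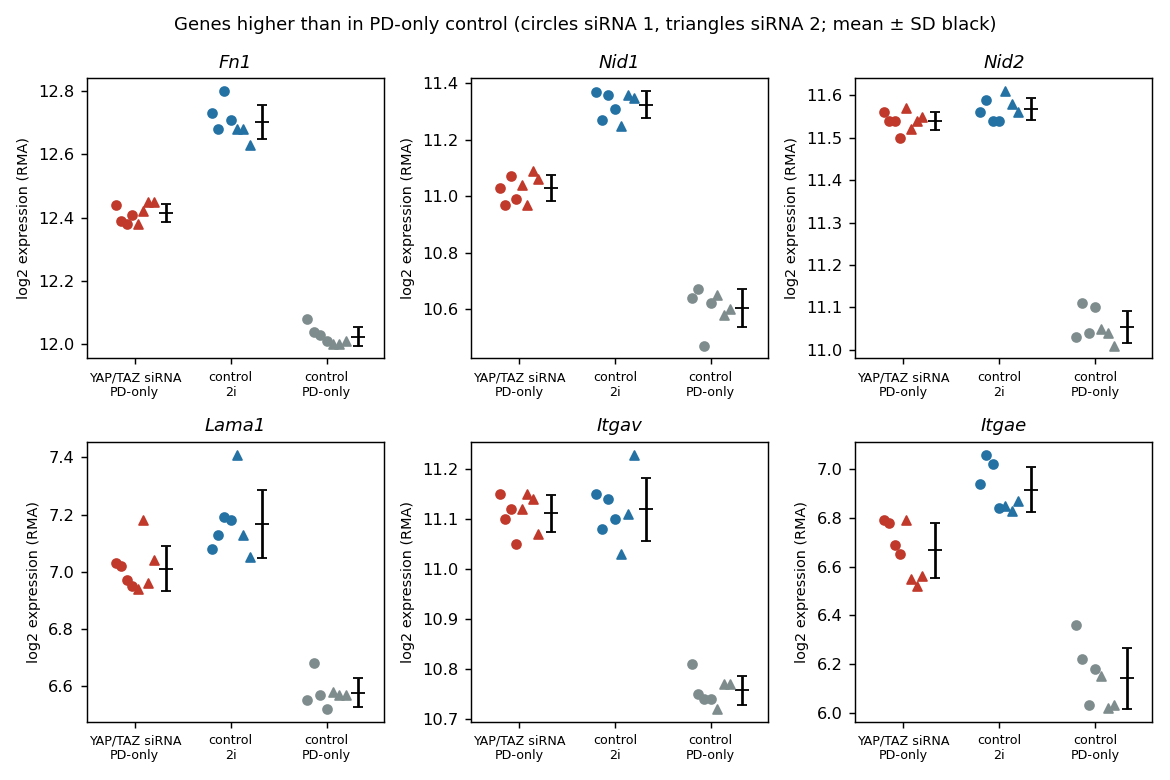
Log2 expression of each array for 6 genes that were higher than in PD-only control in both comparisons by the probe set used, with YAP/TAZ siRNA cells at the left, 2i control cells in the middle and PD-only control cells at the right, and the mean ± SD of each arm in black. In each panel every PD-only control array lies below the other arms, and for Fn1 and Nid1 the 2i control arrays lie above those of YAP/TAZ siRNA cells.

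Among the 8 integrin beta chains, 1 was higher and 5 lower with YAP/TAZ siRNA than in PD-only control, and likewise 1 higher and 5 lower in 2i control, beside 26.3% of all genes lower with YAP/TAZ siRNA and 26.7% in 2i control. Itgb1 (chromosome 8, 128685654 to 128733579) encodes beta 1, the partner of most laminin- and collagen-binding alpha chains and of the main fibronectin receptor. It had 8.41, 8.59 and 8.76 in YAP/TAZ siRNA cells, 8.65, 8.76 and 9.02 in 2i control cells and 9.85, 9.91 and 10.11 in PD-only control cells. Every PD-only control array was higher than every other array, with a 2.61-fold lower level with YAP/TAZ siRNA (-1.38 ± 0.06, adjusted p = 2.46e-14) and a 2.20-fold lower level in 2i control (-1.14 ± 0.06, adjusted p = 1.36e-12). Of its 6 probe sets, 5 were lower in each comparison. Itgb8, whose product pairs with alpha V and frees active TGF-beta, was dim, with 2.56, 2.69 and 2.78 in YAP/TAZ siRNA cells, 2.37, 2.76 and 2.94 in 2i control cells and 3.37, 4.04 and 4.42 in PD-only control cells. It was lower by 1.32 ± 0.11 with YAP/TAZ siRNA and 1.28 ± 0.11 in 2i control (adjusted p = 1.39e-09 and 4.9e-09), although the PD-only control arrays were themselves spread over more than a log2 unit.

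The leukocyte chain Itgb2 was lower by 0.54 ± 0.09 with YAP/TAZ siRNA and 0.78 ± 0.09 in 2i control, and the platelet and alpha V partner Itgb3 by 0.26 ± 0.08 with YAP/TAZ siRNA and 0.46 ± 0.08 in 2i control (adjusted p = 1.39e-05, 1.81e-07, 0.00563 and 3.82e-05). Both were dim, and a second Itgb3 probe set was higher with YAP/TAZ siRNA (0.23 ± 0.08, adjusted p = 0.0128). Itgb5, another alpha V partner that binds vitronectin, moved little and in opposite directions, lower by 0.13 ± 0.04 with YAP/TAZ siRNA and higher by 0.16 ± 0.04 in 2i control (adjusted p = 0.00479 and 0.00112). Itgb7, known from lymphocytes, was higher with YAP/TAZ siRNA (0.42 ± 0.04, adjusted p = 3.52e-08), and its 2i control value did not pass the test (-0.02 ± 0.05). The dim Itgb4, which binds laminin in epithelia, was not called with YAP/TAZ siRNA (-0.10 ± 0.08) and lower in 2i control (-0.21 ± 0.08, adjusted p = 0.0325). This 2i control call was lost in limma's fit on siRNA 2 of each kind alone (-0.13, adjusted p = 0.423) and with several single arrays left out. Itgb6 passed neither test (0.10 ± 0.06 with YAP/TAZ siRNA and 0.09 ± 0.06 in 2i control).

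Among the 16 integrin alpha chains, 6 were higher and 5 lower with YAP/TAZ siRNA, and 4 were higher and 5 lower in 2i control. These counts came to 11 of 16 and 9 of 16, near the 61.8% and 58% of all genes called in the same comparisons. The 3 chains known mainly as laminin receptors were lower. Itga6 had 10.86, 10.90 and 10.95 in YAP/TAZ siRNA cells, 11.12, 11.15 and 11.18 in 2i control cells and 11.56, 11.57 and 11.63 in PD-only control cells, with no overlap between any arms. It was below PD-only control by 0.68 ± 0.02 with YAP/TAZ siRNA and 0.43 ± 0.02 in 2i control (adjusted p = 8.2e-17 and 4e-13). Itga3 had 6.46 to 6.68 in YAP/TAZ siRNA cells, 6.42 to 6.77 in 2i control cells and 7.13 to 7.67 in PD-only control cells, a difference of -0.86 ± 0.07 with YAP/TAZ siRNA and -0.79 ± 0.07 in 2i control (adjusted p = 4.12e-10 and 2.94e-09). Itga7, the muscle laminin receptor, was dim and lower by 0.31 ± 0.08 with YAP/TAZ siRNA and 0.37 ± 0.09 in 2i control (adjusted p = 0.00284 and 0.001).

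Itgav, Itga5 and Itga8 are among the chains that bind the RGD motif found in fibronectin and vitronectin. Itgav rose by the probe set used, while the dim Itga5 and Itga8 fell. Itgav, the alpha V chain, had 11.05, 11.12 and 11.15 in YAP/TAZ siRNA cells, 11.03, 11.11 and 11.23 in 2i control cells and 10.72, 10.75 and 10.81 in PD-only control cells, higher by 0.36 ± 0.03 with YAP/TAZ siRNA and by 0.36 ± 0.03 in 2i control (adjusted p = 6.48e-10 and 9.3e-10). Of the 5 Itgav probe sets, 3 were called higher with YAP/TAZ siRNA, with differences from 0.09 to 0.38. Only 1 of the 5 was called in 2i control, with differences from 0.01 to 0.36. Itga5, the alpha chain of the main fibronectin receptor, was lower by 0.42 ± 0.07 with YAP/TAZ siRNA and 0.49 ± 0.07 in 2i control (adjusted p = 2.59e-05 and 6.36e-06). Itga8, a receptor for nephronectin, had 4.21, 4.64 and 4.89 in YAP/TAZ siRNA cells, 4.04, 4.21 and 4.34 in 2i control cells and 5.35, 5.41 and 5.72 in PD-only control cells. It was lower by 0.88 ± 0.09 with YAP/TAZ siRNA and by 1.26 ± 0.09 in 2i control, 2.39-fold (adjusted p = 1.82e-08 and 1.39e-10), and no PD-only control array overlapped the others.

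Of the other alpha chains, Itgae and Itgal moved most. Itgae, the partner of beta 7 that binds E-cadherin, was higher by 0.53 ± 0.05 with YAP/TAZ siRNA and 0.78 ± 0.05 in 2i control (adjusted p = 7.53e-09 and 4.18e-11), with 6.52 to 6.79 in YAP/TAZ siRNA cells, 6.83 to 7.06 in 2i control cells and 6.02 to 6.36 in PD-only control cells. Itgal, the alpha chain of a leukocyte integrin, was higher in 2i control (0.80 ± 0.08, adjusted p = 1.7e-08), and its YAP/TAZ siRNA difference was -0.15 ± 0.08 (adjusted p = 0.0973). A second Itgal probe set was called in neither comparison. Itga9 was higher with YAP/TAZ siRNA (0.24 ± 0.05, adjusted p = 0.000127), while its 2i control difference was -0.04 ± 0.05. The collagen receptors Itga1 and Itga2 and the platelet chain Itga2b were slightly higher with YAP/TAZ siRNA, by 0.29 ± 0.12, 0.29 ± 0.08 and 0.15 ± 0.06 (adjusted p = 0.0359, 0.00259 and 0.031), and were not called in 2i control. The calls of Itga1 and Itga2b were lost in fits on the 2 arms alone (adjusted p = 0.0689 and 0.0518) and with several single arrays left out. They were also lost with siRNA 2 of each kind alone (adjusted p = 0.357 and 0.159). With siRNA 1 alone, Itga2 and Itga2b were not called (adjusted p = 0.0833 and 0.112). Itga10, another collagen receptor, was called in 2i control alone (0.21 ± 0.07, adjusted p = 0.0174). Itga4, Itgam and Itgax were dim and passed neither test, with differences between 0.03 and 0.16.

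With the Actb difference as a covariate, 9 genes were called higher and 14 lower with YAP/TAZ siRNA, beside 45.1% of all genes. The calls of Itga2, Itga2b, Itga7, Itgb2, Itgb5, Lama3 and Lamc3 were lost. Of these, Itga7 was at -0.34 with the covariate and -0.31 without it, Itga2b at 0.22 and 0.15, and Itgb5 at -0.14 and -0.13 (adjusted p with the covariate = 0.103, 0.13 and 0.143). The differences of Itgb2 (-0.37 with the covariate and -0.54 without it), Lama3 (0.37 and 0.59), Itga2 (0.16 and 0.29) and Lamc3 (0.07 and 0.22) were smaller (adjusted p with the covariate = 0.0759, 0.0504, 0.438 and 0.749). In 2i control, 7 were higher and 16 lower (42.9% of all genes called), and Itga7, Itga10, Itgb4, Itgb5 and Lamc3 lost their calls. Itga7 was at -0.40 with the covariate and -0.37 without it, Itgb4 at -0.29 and -0.21, Itgb5 at 0.16 in both, Itga10 at 0.17 and 0.21, and Lamc3 at 0.11 and 0.25 (adjusted p with the covariate = 0.0589, 0.128, 0.0938, 0.349 and 0.633). The part of RNA quality in these differences was not tested beyond this fit.

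YAP/TAZ siRNA cells and 2i control cells were also compared directly, which tests whether the differences from PD-only control were of unlike size. Of the 41 genes, 18 differed, 8 higher and 10 lower in YAP/TAZ siRNA cells, where 48.3% of all genes were called (25.5% higher and 22.8% lower). Sparc (-0.03 ± 0.03, adjusted p = 0.441), Lama5 (-0.01 ± 0.03), Nid2 (-0.03 ± 0.02) and Itgav (-0.01 ± 0.03) did not pass the test by the probe sets used, and these differences and their errors were small beside the differences from PD-only control. Of the 5 Itgav probe sets, however, 1 was called higher in YAP/TAZ siRNA cells, with differences from -0.01 to 0.29 over all 5. With quantile normalization added, Nid2 was called at -0.06 (adjusted p = 0.0212 in limma's fit). Lamb1 was higher in YAP/TAZ siRNA cells by 0.42 ± 0.03 (adjusted p = 4.24e-10). Of the 41 genes, Lama3 alone differed by 2-fold (1.01 ± 0.08, adjusted p = 1.86e-09), higher in YAP/TAZ siRNA cells, by the probe set used. Its second probe set was at 0.06 ± 0.07 (adjusted p = 0.521), and the second Lamc1 probe set was lower in YAP/TAZ siRNA cells by 1.21 ± 0.10 (adjusted p = 3.35e-09), beside 0.25 for the one used. Over all genes this size was reached by 1.51%, with 0.632% higher and 0.879% lower. The arrays of the 2 arms did not overlap for 3 genes that were higher and 6 that were lower in YAP/TAZ siRNA cells, against 28.3% of all genes (14.9% higher and 13.3% lower).

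Itgal showed the largest difference in the other direction. It had 5.71, 5.90 and 6.05 in YAP/TAZ siRNA cells and 6.64, 6.90 and 7.04 in 2i control cells, lower by 0.95 ± 0.08 (adjusted p = 1.24e-09), while its second probe set was at -0.02 and not called. Fn1 and Nid1 were lower in YAP/TAZ siRNA cells than in 2i control by 0.28 ± 0.02 and 0.30 ± 0.03 (adjusted p = 1.53e-09 and 1.23e-07), Itga6 and Itgb1 by 0.25 ± 0.02 and 0.25 ± 0.06, Itgb5 by 0.29 ± 0.04 and Lamb3 by 0.47 ± 0.09. Higher in YAP/TAZ siRNA cells than in 2i control were Itgb7 (0.44 ± 0.04, adjusted p = 3.34e-08), Itga1 (0.51 ± 0.12), Itga9 (0.28 ± 0.05) and Itga8 (0.38 ± 0.09). Itgae, Lamc1 and Lama1 were lower by 0.24, 0.25 and 0.16, and Itgb2 and Itgb3 higher by 0.24 and 0.20. In limma's fits on 1 siRNA of each kind, Itgb2 lost its call with siRNA 1 (adjusted p = 0.723) and Itgb3 with either (0.183 and 0.147). Lama1, Itga1 and Itgb1 lost theirs with siRNA 2 (adjusted p = 0.168, 0.169 and 0.053). The calls of Itgb2 and Itgb3 were also lost with several single arrays left out.

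**Figure D4:**
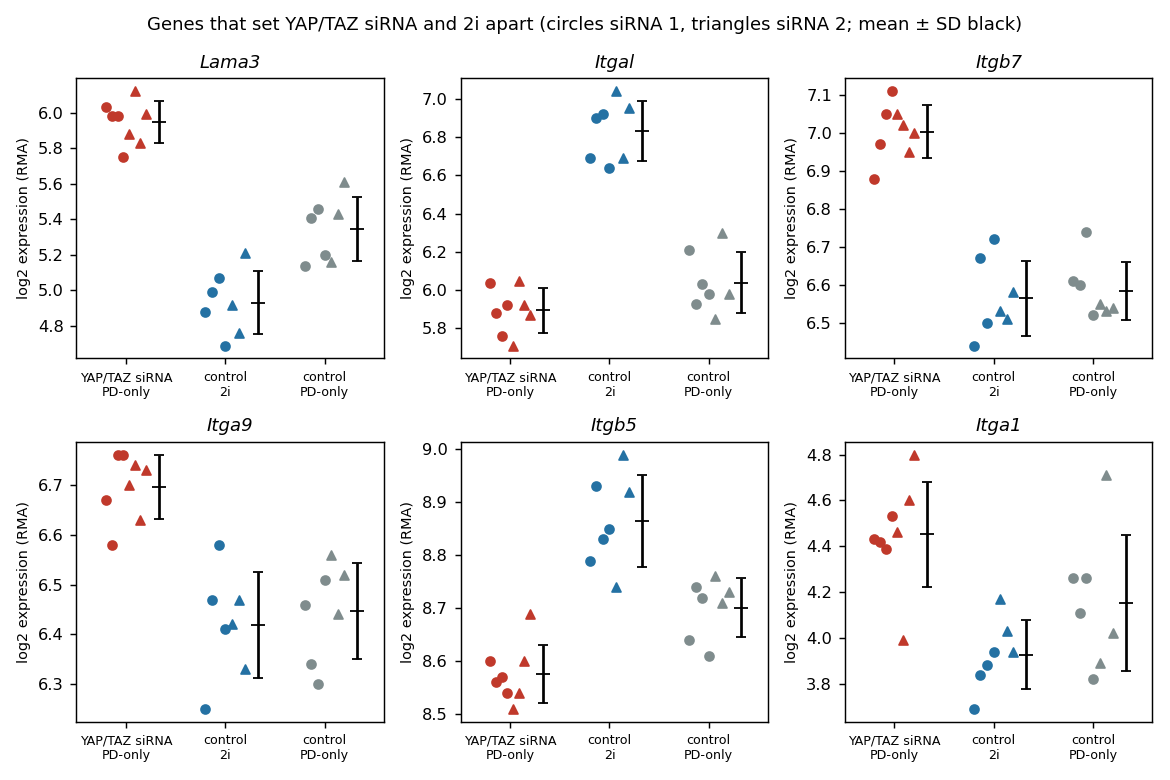
Log2 expression of each array for 6 genes that differed between YAP/TAZ siRNA cells (left) and 2i control cells (middle), with PD-only control cells at the right and the mean ± SD of each arm in black. Lama3 spans 5.75 to 6.12 in YAP/TAZ siRNA cells and 4.69 to 5.21 in 2i control cells, while Itgal spans 5.71 to 6.05 in YAP/TAZ siRNA cells and 6.64 to 7.04 in 2i control cells.

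Of the 41 genes, 26 had several probe sets, and these did not always move together. All probe sets of a gene were called in the same direction for 9 of the 26 with YAP/TAZ siRNA, 9 in 2i control and 5 between YAP/TAZ siRNA and 2i control (56.6%, 54.5% and 44.3% of all single-symbol probe sets called). Opposite calls were made for Itgb3 with YAP/TAZ siRNA and for Lamc1 in 2i control. Lamc1 in 2i control, Hspg2 and Itgb3 in either comparison with PD-only control, and Lama3 and Itgal in each comparison where they were called are therefore uncertain. So are Hspg2 and Itga5 between YAP/TAZ siRNA and 2i control, where the probe sets used were not called (-0.08 ± 0.07 and 0.07 ± 0.07). There the other Hspg2 probe set was lower by 0.62 ± 0.04 (adjusted p = 8.34e-11 in limma's fit). Of the 4 Itga5 probe sets, 2 were higher, by 0.19 and 0.12 (adjusted p = 0.0227 and 0.0352). Only 1 probe set was called for Itgav in 2i control and for Tnc and Itga1 with YAP/TAZ siRNA. The same held for Itga1, Itga8, Itgb1 and Itgb3 between YAP/TAZ siRNA and 2i control, so these calls are uncertain as well.

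**Figure D5:**
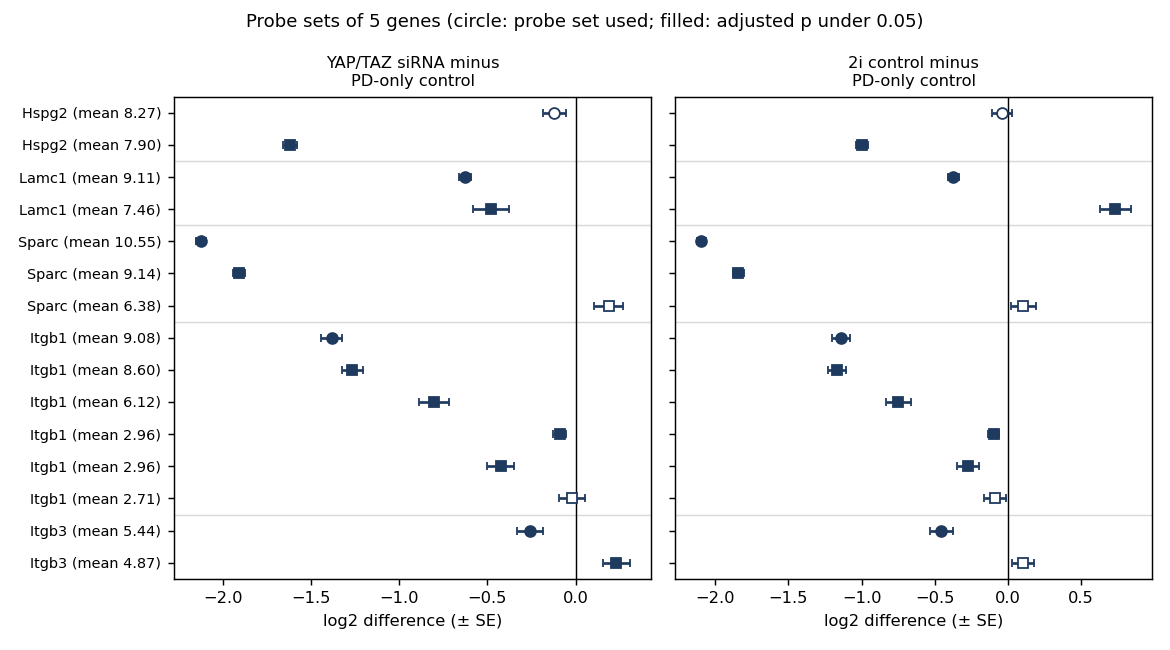
Log2 difference (± SE) of every probe set of 5 genes for YAP/TAZ siRNA minus PD-only control (left) and 2i control minus PD-only control (right), with the mean level of each probe set beside its gene, circles for the probe set used and filled symbols for an adjusted p under 0.05. Hspg2 has probe sets at -0.12 and -1.62 in the left panel, and the Lamc1 probe sets lie on opposite sides of 0 in the right panel at -0.37 and 0.73.

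The adaptor genes that connect integrins to actin were mostly lower. Of 30 measured, 1 was higher and 24 lower with YAP/TAZ siRNA, and 3 were higher and 23 lower in 2i control, with medians of -0.58 with YAP/TAZ siRNA and -0.54 in 2i control. Over all genes, 35.5% were higher and 26.3% lower with YAP/TAZ siRNA, and 31.3% higher and 26.7% lower in 2i control, which also stand beside the counts of the lists that follow. The medians over all genes were 0.06 with YAP/TAZ siRNA and 0.04 in 2i control. Lpp, a LIM protein of focal adhesions, was lower by 3.55 ± 0.06 with YAP/TAZ siRNA and 2.51 ± 0.06 in 2i control, and Parva, parvin alpha of the integrin-linked kinase complex, by 2.80 ± 0.09 with YAP/TAZ siRNA and 2.61 ± 0.10 in 2i control (adjusted p = 2.08e-21, 1.14e-18, 3.12e-16 and 2.3e-15). Pdlim7 was lower by 2.53 ± 0.06 with YAP/TAZ siRNA and 3.14 ± 0.06 in 2i control, and Tgfb1i1, which encodes Hic-5, by 1.94 ± 0.05 with YAP/TAZ siRNA and 1.76 ± 0.06 in 2i control. Cav1, which encodes caveolin 1, was lower by 1.71 ± 0.07 with YAP/TAZ siRNA and 1.82 ± 0.07 in 2i control.

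Of 20 further matrix receptors and integrin partners, 2 were higher and 15 lower with YAP/TAZ siRNA, and 1 was higher and 12 lower in 2i control, with medians of -0.76 with YAP/TAZ siRNA and -0.37 in 2i control. The falls were led by Sgce (-2.93 ± 0.04 with YAP/TAZ siRNA and -1.94 ± 0.04 in 2i control), Plaur, the urokinase receptor (-2.55 ± 0.06 with YAP/TAZ siRNA and -2.95 ± 0.06 in 2i control), and the collagen receptor Ddr1 (-2.52 ± 0.05 with YAP/TAZ siRNA and -2.43 ± 0.05 in 2i control). Of 35 other matrix glycoproteins, 21 of them dim, 6 were higher and 20 lower with YAP/TAZ siRNA and 7 were higher and 19 lower in 2i control, with medians of -0.21 with YAP/TAZ siRNA and -0.19 in 2i control. Thbs1, which encodes thrombospondin 1, was lower by 5.52 ± 0.07 with YAP/TAZ siRNA and 5.58 ± 0.07 in 2i control. Npnt, the nephronectin ligand of the alpha 8 integrin, was lower by 4.13 ± 0.10 with YAP/TAZ siRNA and 2.89 ± 0.11 in 2i control. Fbln1, fibulin 1, was higher by 1.49 ± 0.04 with YAP/TAZ siRNA and 0.72 ± 0.04 in 2i control, and Egfl6 by 1.23 ± 0.07 with YAP/TAZ siRNA and 2.28 ± 0.07 in 2i control.

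Markers of ES cells were high in every arm, with a mean over 10 genes between 12.29 and 12.31 in YAP/TAZ siRNA cells, 12.41 and 12.47 in 2i control cells and 12.11 and 12.14 in PD-only control cells. These ranges did not overlap. Of the 10, 5 were higher and 2 lower with YAP/TAZ siRNA than in PD-only control, with differences from -0.28 to 0.64 and a median of 0.06. In 2i control, 8 were higher and 2 lower, with differences from -0.47 to 1.03 and a median of 0.35. The means of fibroblast, trophoblast and endoderm markers moved with the same comparisons, while those of leukocyte and megakaryocyte markers overlapped between arms. Of the 12 fibroblast markers, 8 were dim, 8 were lower with YAP/TAZ siRNA and 9 in 2i control, and none was higher. Fap, Lum and Prrx1 were called in neither. Col1a2 and Col1a1, the chains of collagen I, were lower by 4.50 ± 0.08 and 3.95 ± 0.08 with YAP/TAZ siRNA and by 4.56 ± 0.08 and 4.01 ± 0.09 in 2i control. Of 11 trophoblast markers, 5 of them dim, 3 were higher and 5 lower in each comparison, with means of 5.48 to 5.61 in YAP/TAZ siRNA cells, 5.59 to 5.65 in 2i control cells and 6.23 to 6.37 in PD-only control cells. Krt7 fell by 4.33 ± 0.07 with YAP/TAZ siRNA and by 4.57 ± 0.08 in 2i control, Gata3 by 3.13 ± 0.05 with YAP/TAZ siRNA and 2.48 ± 0.06 in 2i control, and Plac1 by 2.66 ± 0.10 with YAP/TAZ siRNA and 2.62 ± 0.10 in 2i control. Tfap2a and Cdx2 went the other way, Tfap2a higher by 1.27 ± 0.05 with YAP/TAZ siRNA and 2.56 ± 0.05 in 2i control, and Cdx2 by 1.07 ± 0.07 with YAP/TAZ siRNA and 0.55 ± 0.07 in 2i control.

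Of 14 primitive and parietal endoderm markers, 12 of them dim, 2 were higher and 7 lower with YAP/TAZ siRNA and 2 were higher and 8 lower in 2i control, with means of 5.19 to 5.32 in YAP/TAZ siRNA cells, 5.06 to 5.17 in 2i control cells and 5.65 to 5.76 in PD-only control cells. Gata4 and Sox17 were not called, Lrp2 was lower by 3.54 ± 0.05 with YAP/TAZ siRNA and 3.50 ± 0.05 in 2i control, and Hnf4a was higher by 0.72 ± 0.06 with YAP/TAZ siRNA and 0.53 ± 0.07 in 2i control. Of 10 leukocyte and megakaryocyte markers, 9 were dim, among them Ptprc, and 3 were higher and 1 lower with YAP/TAZ siRNA and 2 higher and 2 lower in 2i control, with means of 5.15 to 5.26 in YAP/TAZ siRNA cells, 5.06 to 5.22 in 2i control cells and 5.17 to 5.34 in PD-only control cells. The largest fall among the leukocyte and megakaryocyte markers was 1.08 with YAP/TAZ siRNA and 1.20 in 2i control. The part of cells of these other types in the values of the integrins, laminins and glycoproteins was not tested.

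The siRNAs of one kind were compared within each arm. None of the 18193 genes was called between the YAP/TAZ mixes, between the control siRNAs in PD-only medium or between the control siRNAs in 2i in limma's fit, while 3.56%, 4.23% and 7.97% had an unadjusted p under 0.05. Of the 41 genes, 1 had such a p in each, namely Itgb6, Itgb8 and Sparc. The widest gap was 0.20 for Itga7 between the mixes, 0.45 for Itgb8 between the control siRNAs in PD-only medium and 0.24 for Itgam between those in 2i. With siRNA 1 of each kind alone, 11 of the 41 were higher and 16 lower with YAP/TAZ siRNA (53.1% of all genes called), and with siRNA 2 alone 10 were higher and 15 lower (48.2% called). Itga2, Itga2b, Itga7 and Lamc3 lost their calls with siRNA 1 alone, and Itgb6 gained one. Itga1, Itga2b, Itgb3, Itgb5 and Lamc3 lost theirs with siRNA 2 alone. In 2i control, Itga10 lost its call and Itga1 gained one with siRNA 1 alone. Itgb4, Itgb5 and Lamc3 lost theirs and Itgam gained one with siRNA 2 alone. These fits used fewer arrays.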

How the data were processed

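Total RNA of 22 ES cell cultures was biotin-labelled with an Affymetrix 3′ IVT kit and read on 1-colour Affymetrix arrays, per the labels' protocols. The authors deposited log2 expression per probe set, made with RMA per the submitters' processing notes. Its version is not given in the sources used here. RMA makes the distributions of arrays alike, so a change in total RNA per cell cannot be seen, and it gives no detection call. No scan date was used, and array batches and arms cannot be told apart. The number of arrays limits the precision.

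Of 45101 probe sets, 34945 had 1 gene symbol in the platform annotation, and for each of 18193 genes the probe set of highest mean was taken. The 41 genes had 88 probe sets, and all 41 Entrez identifiers were found in RefSeq. The fit was made with limma 3.58.1 in R 4.3.3 over all genes, with a mean for each of 6 groups of medium and siRNA (16 residual degrees of freedom, 3.1 from the prior). Each arm was the equal-weight average of their siRNA groups. Members and lists were chosen with earlier results of these data known, and no list was tested as a set. Each of the 41 genes is named, with values per array for those lower or higher by 2-fold and for others chosen for description after their values were seen. No gene is named from the list of ES cell markers, and only Ptprc from that of leukocyte and megakaryocyte markers. From each other list some called genes with the largest differences are named, up to 4 in each comparison. Further markers were chosen after their values were seen. The test was checked on simulated data with independent noise and known changes, the largest 2-fold, added to a small part of the genes. It called nearly all of the 2-fold changes. This check does not cover the smaller differences called here or the rate of false calls in the measured data. Figures were drawn with matplotlib 3.10.9 in Python 3.11.15.

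Alternatives were the mean of a gene's probe sets, leaving out probe sets that may cross-hybridise, leaving out dim genes, quantile normalization, a trended prior, array weights, fits on 2 arms alone, siRNAs pooled or as a random block (statmod 1.5.0), the replicate letter as a block, an RNA quality covariate, each siRNA alone, each array left out and a 2-fold threshold.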

Additional observations from a re-analysis of the deposited data

Results flagged for a closer look

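Of 164 gene and group combinations with 4 arrays, 5 held an array that stood apart from the others of its group by Dixon's criterion, and chance flags about 1 in 20. In the YAP/TAZ mix 2 group, replicate A had 6.79 for Itgae, against 6.52 to 6.56 in the others. In 2i control with control siRNA 1, replicate C had 5.09 for Lamc3, against 5.24 to 5.26. In PD-only control with control siRNA 1, replicate A had 5.72 for Itga8, against 5.36 to 5.42, and 10.81 for Itgav, against 10.74 to 10.75. Replicate B of the same group had 9.51 for Lamc1, against 9.42 to 9.43. Itga8 and Lamc3 are dim.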

How the results depend on the processing

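Counts of the 41 genes called stayed within 1.5 times under every alternative but 2. With dim genes left out, 19 genes were tested, and 8 were higher and 9 lower with YAP/TAZ siRNA than in PD-only control, 8 lower in 2i control, and 3 higher in YAP/TAZ siRNA than in 2i control, with 84.6%, 82.1% and 76.3% of all genes called. The smaller counts follow from fewer genes tested. With a 2-fold threshold, 0 were higher and 5 lower with YAP/TAZ siRNA, 0 higher and 5 lower in 2i control, and 1 higher and 0 lower between YAP/TAZ siRNA and 2i control. With each of the 22 arrays left out in turn, 10 to 14 genes were higher and 17 to 18 lower with YAP/TAZ siRNA, 9 to 11 higher and 17 to 18 lower in 2i control, and 6 to 8 higher and 10 lower between YAP/TAZ siRNA and 2i control, beside 59.2% to 62.6%, 55.6% to 58.1% and 46.8% to 48.4% of all genes called. With the mean of all probe sets, Lamc1 turned to 0.18 in 2i control (adjusted p = 0.00688) and Itgav to 0.10 between YAP/TAZ siRNA and 2i control (adjusted p = 0.0189), Hspg2 was called at -0.87 and -0.52, and Itgb3 lost its call with YAP/TAZ siRNA (adjusted p = 0.841). The cause was not tested. Same-lettered arrays did not deviate together (r between -0.08 and 0.12 over 51 pairs, and 9 of 22 arrays correlated best with their own letter), so the letters were not taken as pairs. With the replicate block, 13 genes were higher and 17 lower with YAP/TAZ siRNA, 10 higher and 18 lower in 2i control, and 8 higher and 10 lower between YAP/TAZ siRNA and 2i control (61.9%, 57.9% and 47.9% of all genes called), with Itga1 lost (adjusted p = 0.0636) and Itgax gained (adjusted p = 0.0435) with YAP/TAZ siRNA.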
